A study of Mus musculus with 18 samples.

Results

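The comparison asked which genes changed differently in cumulus cells and in mural granulosa cells during the first 4 h after human chorionic gonadotropin (hCG), the injected hormone that stands in for the surge of luteinizing hormone (LH) and triggers ovulation. It used 12 of the 18 libraries of the series: 3 of cumulus cells at 0 h, 3 of cumulus cells at 4 h, 3 of mural cells at 0 h and 3 of mural cells at 4 h. For each gene, the change from 0 to 4 h in mural cells was subtracted from the change in cumulus cells, on the log2 scale. A positive difference is called "toward cumulus" and a negative one "toward mural" throughout. Of 19941 genes tested, 2800 had a difference past an adjusted p of 0.05.

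All groups came from the ovaries of wild-type mice, and every mouse was labelled by its time after hCG, 0 h included. The strain, the age and any priming before hCG are not given in the labels, nor do they say whether the libraries of a group stem from different mice or pools. The p-values therefore reflect only how far these libraries vary, and that variation may be technical. Cell types were taken from the sample titles, because the cell type field names mural cells for all but 1 of the cumulus samples, and nothing for that one. The remaining 6 libraries, cumulus and mural cells at 12 h, entered the estimate of the spread. Below they are used only for their levels and for calls between the cell types at 12 h.

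As background, the LH receptor sits mainly on mural and theca cells, while cumulus cells, which enclose the oocyte, carry little of it. Mural cells answer the surge by releasing epidermal growth factor (EGF)-like ligands, and these act on EGF receptors of both cell types and set off the extracellular signal-regulated kinase (ERK) cascade. Cumulus cells then lay down a hyaluronan matrix and expand, the oocyte resumes meiosis as cyclic guanosine monophosphate (cGMP) falls, and mural cells start to make progesterone and to remodel the follicle wall.

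Depth ran from 32.2 M counts (M, mega) in the shallowest of the 12 libraries to 47.9 M in the deepest, and levels are given as counts per M counts (CPM), with library sizes scaled by a trimmed mean of log ratios (TMM). Mural markers followed the titles and cumulus markers did so in part: the summed CPM of 5 mural markers (Lhcgr, Cyp11a1, Nppc, Cyp19a1, Cd34) was 2073 to 2506 in mural and 114 to 170 in cumulus libraries at 0 h. Of the cumulus markers at 0 h, Kctd14 stood at means of 676 CPM in cumulus and 58.1 CPM in mural cells, Slc38a3 at 119 and 146 CPM and Npr2 at 959 and 631 CPM. Amh, at 167 and 164 CPM, hardly separated the cell types, and Slc38a3 was the higher in mural cells. Oocyte RNA was present in the cumulus libraries: 15 oocyte markers summed to 486, 2309 and 2434 CPM at 0 h and to 2714, 1395 and 8680 CPM at 4 h, against 217 to 799 CPM in the mural libraries. Libraries of a group differed by more than counting error, with a chi-square per degree of freedom of 40.2 to 273 between cumulus libraries at 4 h, 8.70 to 82.9 between those at 0 h and 8.91 to 40.4 between mural libraries of a time. The fit gives every group the same spread, so the standard error (SE) and adjusted p of a difference that rests on the cumulus libraries of 4 h may be understated. Of the 2800 genes, 1217 were also called in the fit to the 12 libraries alone and in a fit with its own weight for each group, and 1177 were called in each of 21 alternative fits.

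The 2800 called genes made up 14.0% of those tested. They divided into 1352 toward cumulus (6.78%) and 1448 toward mural (7.26%), so 48.3% lay toward cumulus, which became 69.3% of 3349 genes when libraries were scaled by their totals alone. That scaling moved the median difference of all genes from 0.07 to 0.25. The counts of gene lists below are to be read against the shares of 6.78% toward cumulus and 7.26% toward mural. The median size among called genes was 1.17 on the log2 scale, and 1628 of them differed by at least 2-fold. In 2388 of them (12.0% of genes tested, against 16.1% of genes tested that did so with or without a call), each of the 9 pairs of cumulus libraries at 4 and 0 h gave a change beyond each of the 9 mural pairs. The changes themselves were far more widespread, since 47.8% of genes changed in cumulus cells (25% rose and 22.8% fell) and 45.1% in mural cells (22.8% rose and 22.3% fell), and 5164 of the 6158 genes that changed the same way in both cell types had no called difference in size. Of 5763 genes called in 1 cell type alone, 4227 had no called difference.

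The called genes fell into several kinds of pattern. Cumulus cells alone rose in 390 and fell in 416, and mural cells alone rose in 344 and fell in 386. Both cell types rose in 646, with the larger rise in cumulus cells for 341 and in mural cells for 305. Both fell in 348, more steeply in cumulus cells for 255 and in mural cells for 93. The cell types moved in opposite directions in 222 genes, of which 100 rose in cumulus and fell in mural cells and 122 did the reverse, and 48 genes were called in neither arm. Cumulus and mural cells differed in 46.8% of all genes at 0 h and in 54.5% at 4 h. Read in this way, 954 of the called genes differed between cumulus and mural cells at 4 h only, 735 at 0 h only, 415 less at 4 h than at 0 h, 363 more, and in 317 the order of the cell types turned over.

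**Figure D1:**
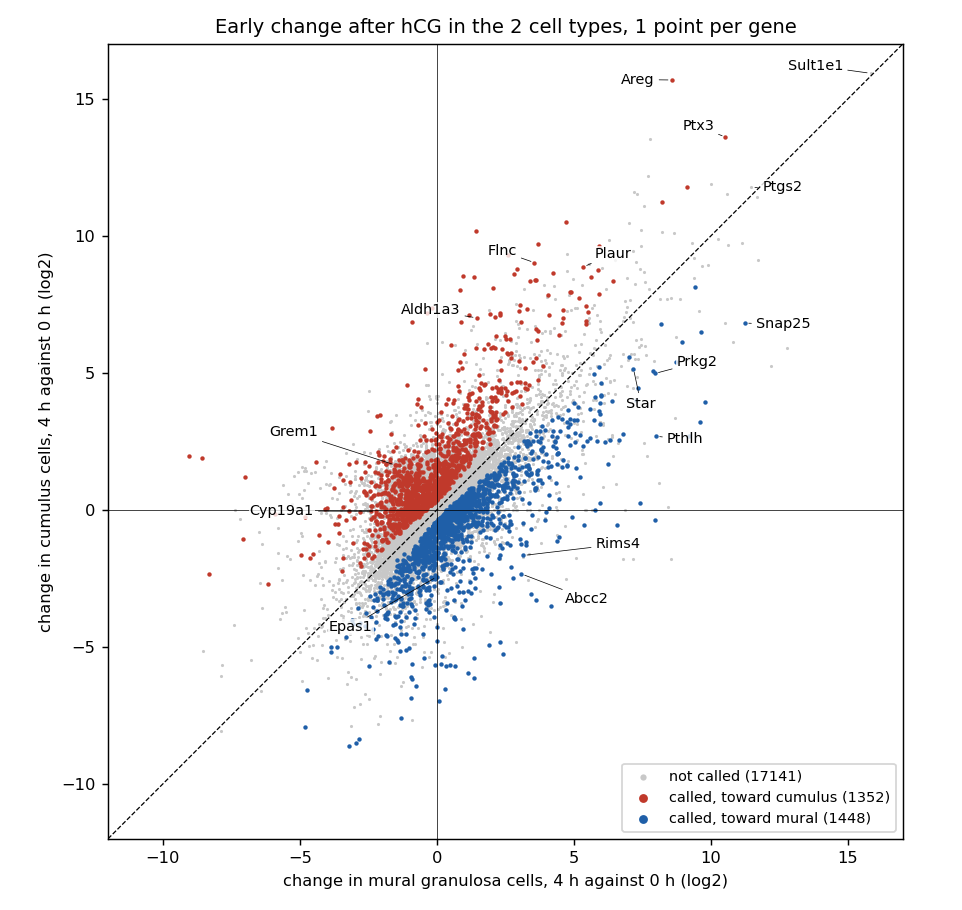
Each point is 1 of the 19941 genes, placed by its log2 change from 0 to 4 h in mural cells (x axis) and in cumulus cells (y axis), with equal change on the dashed line. The 1352 genes called toward cumulus (red) lie above the line and the 1448 called toward mural (blue) below it. Most uncalled genes follow the line, and Areg is drawn at a fitted cumulus change that has no upper limit, since it had no counts at 0 h.

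Promoter sequence is shown here for 4 genes described below, because each has in the 250 bases before its RefSeq start the letters of an element that a pathway of this response is known to use. The windows lie upstream of the gene in GENCODE M21 as well. They are written 5′ to 3′ on the gene's strand of GRCm38, and the capitals mark the element.
Areg: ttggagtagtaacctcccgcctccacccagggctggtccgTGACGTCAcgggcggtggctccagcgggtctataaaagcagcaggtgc
Plaur: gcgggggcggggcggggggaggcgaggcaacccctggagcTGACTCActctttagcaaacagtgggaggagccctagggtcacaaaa
Nfkbia: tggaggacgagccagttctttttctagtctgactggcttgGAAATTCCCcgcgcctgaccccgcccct
Hmgcs1: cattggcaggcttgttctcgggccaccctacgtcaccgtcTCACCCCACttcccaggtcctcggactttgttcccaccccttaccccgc
The Areg window (chr5:91139498-91139585, plus strand) holds TGACGTCA, the cyclic AMP response element. The Plaur window (chr7:24462374-24462460, plus strand) holds a match to TGANTCA, bound by the AP-1 factors Fos and Jun. The Nfkbia window (chr12:55492648-55492715, minus strand) holds GGGAANTTC on its opposite strand, a core bound by NF-kappa-B. In the Hmgcs1 window (chr13:119690174-119690262, plus strand) the capitals are TCACNCCAC, a form of the sterol regulatory element. Matches were counted on both strands in the 13758 tested genes with a promoter in the table. TGACGTCA was found in 2.65% of all promoters, 2.52% of those called toward cumulus and 3.36% of those called toward mural, and TGANTCA in 6.24, 7.47 and 6.82%. GGGAANTTC was found in 1.02, 0.873 and 0.768%, and TCACNCCAC in 1.3, 1.45 and 1.44%. A further element, GCGTGGGCG of the Egr factors, was found in 1.06, 1.26 and 2.21%. A match is a description of the letters and says nothing of binding.

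Among the EGF-like ligands, the genes that carry the signal from mural to cumulus cells, amphiregulin (Areg) had the larger rise in cumulus cells and betacellulin (Btc) in mural cells. Areg (chr5:91139599-91148432) had no count in any cumulus library at 0 h and reached 157, 222 and 133 CPM at 4 h, while in mural cells it went from 1.21, 1.31 and 0.699 to 245, 681 and 292 CPM. Against a floor of 3 counts over the 3 cumulus libraries at 0 h, the rise in cumulus cells was at least 7406-fold, set beside 378-fold in mural cells (adjusted p = 0.00699 for the difference). Mural cells nevertheless held more Areg at both times. Btc was 3.14, 3.62 and 2.04 CPM in cumulus and 2.38, 2.29 and 2.71 CPM in mural cells at 0 h. At 4 h it was 937, 995 and 564 CPM in cumulus and 1473, 2093 and 1488 CPM in mural cells, a difference of -1.27 ± 0.31 (SE; adjusted p = 0.0112). Both calls were lost with group weights (adjusted p up to 0.52 for Areg and 0.15 for Btc over 22 alternatives, of which 3 and 2 ended the call). The third ligand, epiregulin (Ereg), was at 4 counts in all over the cumulus libraries at 0 h and at 124, 168 and 94.4 CPM at 4 h. It was at 1.01, 0.68 and 0.677 CPM in mural cells at 0 h and 581, 1274 and 631 CPM at 4 h, and its difference was not called (adjusted p = 0.266). Of the 12 EGF-like ligands and receptors, 2 were called toward cumulus and 3 toward mural, with a median difference of -0.22 against 0.07 for all genes. Of all genes, 6.78% were called toward cumulus and 7.26% toward mural. Besides Areg, the call toward cumulus was Egf (2.51 ± 0.73, adjusted p = 0.0291), which moved with the summed oocyte markers among cumulus libraries (correlation of at least 0.9). The part of oocyte RNA in it was not tested, and 11 of 21 alternatives ended its call. With group weights none of the 12 was called. The 3 calls toward mural became 1 without the first or the second cumulus library of 0 h, the second mural library of 0 h or the third of 4 h. The receptor gene Egfr was not called (-0.25 ± 0.25, adjusted p = 0.531).

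Several genes rose steeply in mural cells and less so in cumulus cells. Snap25 (chr2:136713453-136782428), a SNARE protein of regulated secretion, was below 0.5 CPM in all 6 libraries at 0 h: 0.273, 0.40 and 0.0459 CPM in cumulus and 0.254, 0.151 and 0.175 CPM in mural cells. At 4 h it stood at 26.3, 32.2 and 25.3 CPM in cumulus and at 462, 459 and 539 CPM in mural cells. The cell types therefore overlapped at 0 h and did not at 4 h, and the difference of the changes was -4.43 ± 0.51 (adjusted p = 1.92e-05). The cGMP-dependent kinase gene Prkg2 also rose in both, from 0.218, 0.36 and 1.06 to 18.6, 18.8 and 15 CPM in cumulus cells. In mural cells it went from 0.917, 0.982 and 0.961 to 247, 205 and 261 CPM, a difference of -2.98 ± 0.42 (adjusted p = 0.000118). Chromogranin B (Chgb), a protein of secretory granules, differed by -2.09 ± 0.36 (adjusted p = 0.000689) and also rose in both cell types. Its adjusted p was 0.0532 with group weights. Not all genes of secretion leaned this way: of 16 genes of regulated exocytosis, 3 were called toward mural and 3 toward cumulus, including Stx11 (1.33 ± 0.29) and Snap23 (0.63 ± 0.12). Among all genes, 7.26% were called toward mural and 6.78% toward cumulus. Of 22 alternatives, 2 ended the call of Stx11.

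Several genes of peptide and protein ligands differed toward mural. Substance P's precursor gene Tac1 was 6.93, 7.86 and 5.4 CPM in cumulus cells at 0 h and 6.73, 5.83 and 2.92 CPM at 4 h, with no called change. In mural cells it rose from 1.97, 1.91 and 1.99 to 23.7, 43.9 and 23.5 CPM, so that the difference was -4.34 ± 0.43 (adjusted p = 3.34e-06). The parathyroid hormone-like hormone gene Pthlh rose in both, to 5.05, 6.37 and 4.78 CPM in cumulus and 39.7, 77.4 and 47.8 CPM in mural cells (-5.31 ± 0.62, adjusted p = 2.16e-05), and the neuregulin gene Nrg3 reached 4.33, 3.28 and 9.59 and 26, 29.9 and 31.9 CPM (-4.04 ± 0.51, adjusted p = 4.11e-05). Of 12 neuropeptide genes tested, Tac1, Nmu (-3.33 ± 0.73) and Penk (-1.57 ± 0.29) were called toward mural and Calca (3.79 ± 0.89) toward cumulus. Calca lay near the floor at 0 h, with means of 0.00667 CPM in cumulus and 0.118 CPM in mural cells, and of 2.48 and 2.01 CPM at 4 h. Its call was lost with group weights (adjusted p = 0.0998).

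The ovulatory transcription factors did not share 1 direction. Runx1 rose from 42.6, 50.4 and 45.9 to 469, 597 and 294 CPM in cumulus cells and from 22.5, 22.6 and 19.2 to 682, 887 and 628 CPM in mural cells, a difference of -1.80 ± 0.27 (adjusted p = 0.000198). Runx2 differed the other way (1.47 ± 0.38, adjusted p = 0.0154), from a cumulus start of 1.47, 1.52 and 1.1 CPM against 4.96, 12.1 and 13.7 CPM in mural cells, and 4 alternatives ended its call. The progesterone receptor gene Pgr, which follicle rupture requires, rose in both cell types with no called difference in size (-0.93 ± 0.79, adjusted p = 0.453). Its level at 4 h was 84.1, 82.4 and 44.5 CPM in cumulus and 1616, 2630.0 and 1673 CPM in mural cells, a gap already present at 0 h. The orphan receptor Nr5a2, needed for ovulation, fell in both cell types and further in cumulus cells (-1.04 ± 0.18, adjusted p = 0.00079). In all, 3 of 18 ovulatory regulators were called toward cumulus, against 6.78% of all genes, and 6 toward mural, against 7.26%, with a median of -0.62.

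**Figure D2:**
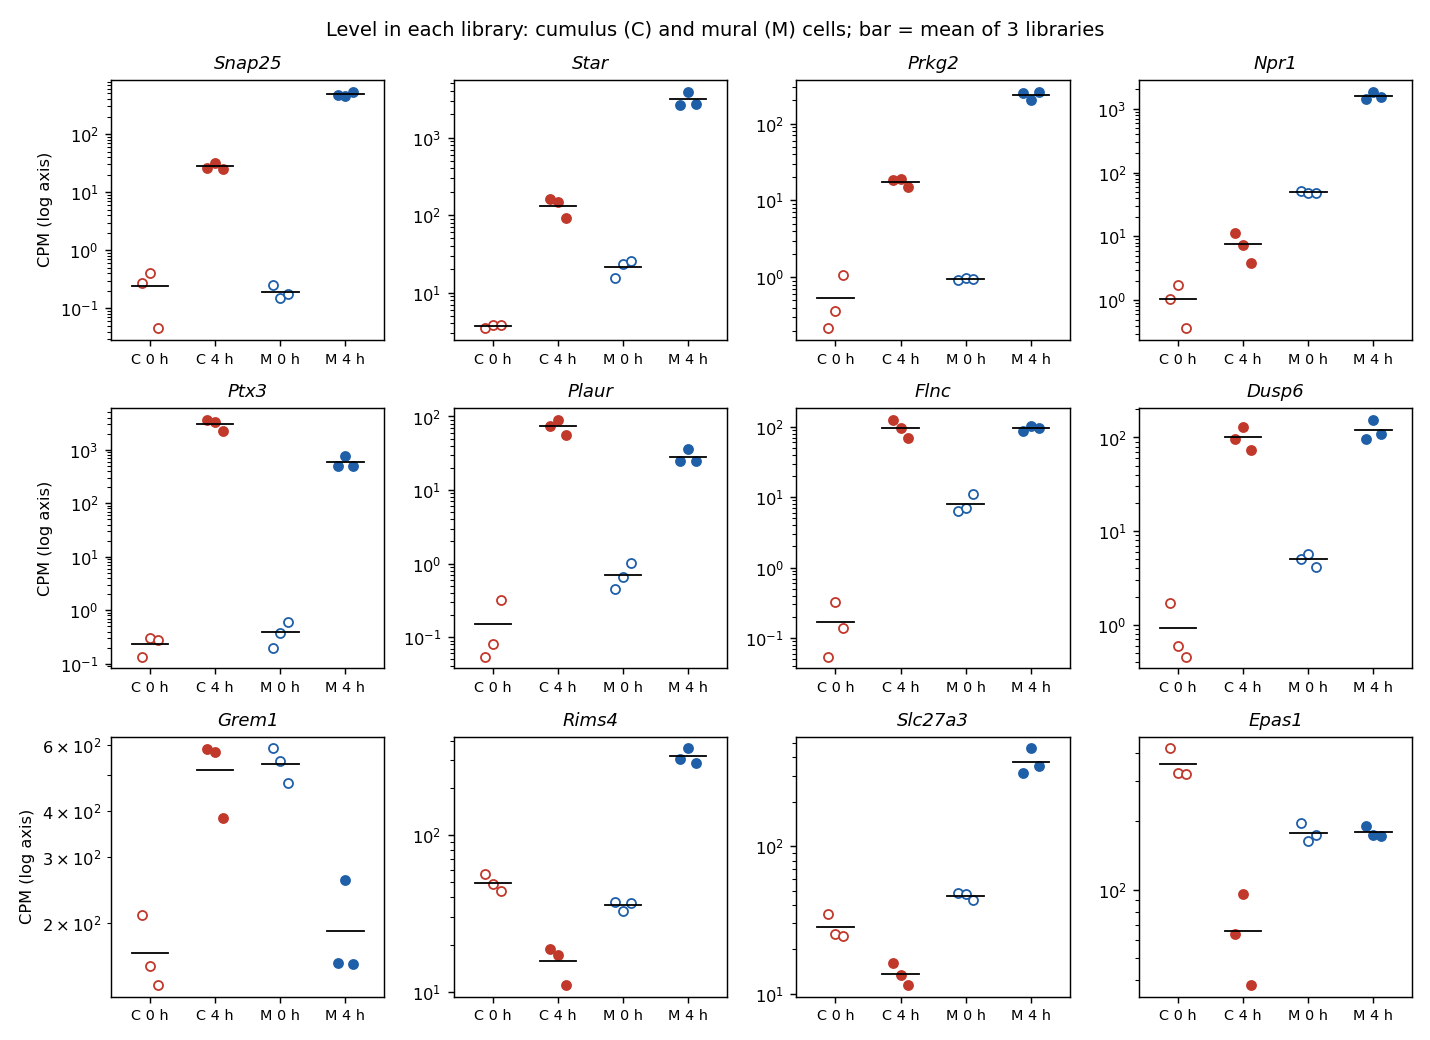
Points are single libraries on a log axis of CPM, open at 0 h and filled at 4 h, in red for cumulus (C) and blue for mural (M) cells, with bars at the mean of 3. The top row shows genes whose larger rise was in mural cells, the middle row genes that started lower in cumulus cells or rose further there, and the bottom row genes that moved in opposite directions or, for Epas1, fell in cumulus cells alone.

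Of 10 genes of the hyaluronan matrix, 1 was called toward cumulus, against 6.78% of all genes, and 2 toward mural, against 7.26%. Of the latter, Hapln3 lay near the floor, with means of 0.278 CPM at 0 h and 0 at 4 h in cumulus cells. In mural cells its means were 0.66 and 0.391 CPM, and 10 of 22 alternatives ended its call. Pentraxin 3 (Ptx3), which cross-links the matrix, rose from 0.136, 0.30 and 0.276 to 3598, 3369.7 and 2261 CPM in cumulus cells and from 0.195, 0.378 and 0.612 to 499, 754 and 489.5 CPM in mural cells. The 4 h groups did not overlap, and the difference in change was 3.07 ± 0.70 (adjusted p = 0.00677, up to 0.471 over the alternatives, 3 of which ended the call). The proteoglycan versican (Vcan) had the larger rise in mural cells, from 1527, 1356 and 1236 to 13083, 13824 and 12831 CPM, against 251, 178 and 178 to 1265, 1107 and 654 CPM in cumulus cells. Its difference was -0.95 ± 0.28 (adjusted p = 0.0335) and 8 of 22 alternatives ended the call. Hyaluronan synthase 2 (Has2) was 505, 726 and 351 CPM in cumulus and 79.4, 147 and 81.5 CPM in mural cells at 4 h. It was already higher in cumulus cells at 0 h, and the difference in change was not called (1.01 ± 0.55, adjusted p = 0.229). The prostaglandin synthase gene Ptgs2 (0.29 ± 0.71, adjusted p = 0.818) and Tnfaip6 (0.95 ± 0.43, adjusted p = 0.148), which transfers heavy chains to hyaluronan, were not called either. Of 16 prostaglandin genes, 2 were called toward cumulus and 2 toward mural. The receptor gene Ptger2, called toward cumulus, rose in cumulus cells from 1.31, 1.16 and 1.42 to 10.5, 9.74 and 6.64 CPM. Mural cells held 3.06, 2.52 and 3.6 CPM at 0 h and 3.76, 3.39 and 3.44 CPM at 4 h, with no called change (2.58 ± 0.31, adjusted p = 2.37e-05 for the difference).

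Proteolysis genes gave a split between an enzyme and its receptor. The urokinase gene Plau, a plasminogen activator, rose from 17.1, 13.7 and 11.1 to 29.9, 30.9 and 26.5 CPM in cumulus cells and from 85.1, 70.6 and 76.9 to 617, 794 and 720 CPM in mural cells. Mural levels lay above all cumulus levels at both times, and the difference was -2.14 ± 0.19 (adjusted p = 1.23e-06). The urokinase receptor gene Plaur, whose promoter window is printed above, differed the other way (3.52 ± 0.54, adjusted p = 0.000269, 0.0612 with group weights). It went from 0.0546, 0.080 and 0.322 to 73.8, 89.5 and 56.1 CPM in cumulus and from 0.449, 0.655 and 1.0 to 25.2, 35.7 and 24.8 CPM in mural cells, so the lower cell type at 0 h was the higher at 4 h. The versican-cleaving protease genes Adamts9 (-2.83 ± 0.29, adjusted p = 5.50e-06) and Adamts4 (-1.88 ± 0.25, adjusted p = 6.10e-05) had the larger rise in mural cells. Adamts9 reached 417, 464 and 416 CPM there and 43, 50.4 and 24.3 CPM in cumulus cells. Adamts1, the best known ovulatory member of that family, was not called (0.19 ± 0.36, adjusted p = 0.758), and the inhibitor gene Timp3 differed toward cumulus (2.10 ± 0.37, adjusted p = 0.00102). In all, 6 of 21 proteases and inhibitors were called toward mural, against 7.26% of all genes, and 3 toward cumulus, against 6.78%.

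Genes of progesterone synthesis were called on both sides, 4 toward cumulus and 2 toward mural of 14, against 6.78% and 7.26% of all genes. Star (chr8:25806555-25815982), which moves cholesterol into mitochondria, rose from 3.49, 3.8 and 3.86 to 159, 147 and 92.5 CPM in cumulus cells and from 15.6, 23.3 and 25.9 to 2666, 3932 and 2738 CPM in mural cells. Mural cells were higher at both times, and the difference in change was -2.01 ± 0.32 (adjusted p = 0.000361, 0.0532 with group weights). The next enzyme of the pathway, Cyp11a1, had no called difference (-0.74 ± 0.55, adjusted p = 0.387). Hsd3b1, which forms progesterone, rose in cumulus cells from 361, 299 and 221 to 764, 794 and 492 CPM and fell in mural cells from 4643, 4362 and 3728 to 2485, 2758 and 2210.2 CPM (1.99 ± 0.26, adjusted p = 4.95e-05). It remained higher in mural cells, with a narrower gap. The electron donor gene Fdx1 rose in both and further in cumulus cells (1.38 ± 0.31, adjusted p = 0.00579). On the estradiol side, the aromatase gene Cyp19a1 fell in mural cells from 828, 806 and 568 to 145, 195 and 132 CPM. In cumulus cells it was 93.6, 70 and 83 CPM at 0 h and 60.3, 111 and 66.6 CPM at 4 h, with overlapping groups and no called change, so the difference was 2.17 ± 0.35 (adjusted p = 0.000481).

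Of 17 genes of natriuretic peptides, cGMP signalling and phosphodiesterases, 3 were called toward cumulus, against 6.78% of all genes, and 6 toward mural, against 7.26%. Among them were Nppc and Npr2, the pair that holds the oocyte in meiotic arrest through cGMP. Nppc, the mural ligand, fell from 140.1, 134 and 101 to 12.2, 13 and 8.63 CPM in mural and from 46.3, 37.7 and 25.4 to 9.04, 9.35 and 5.03 CPM in cumulus cells (1.25 ± 0.39, adjusted p = 0.0393). Its receptor Npr2 fell more in cumulus cells, from 1037, 910.3 and 930.3 to 266, 374 and 202 CPM, than in mural cells, from 689, 593 and 612 to 301, 307 and 319 CPM (-0.74 ± 0.23, adjusted p = 0.0409). Of 22 alternatives, 12 ended the call of Nppc and 15 that of Npr2. The receptor for atrial peptides, Npr1, was a mural gene throughout: it rose from 51.2, 47.1 and 47.8 to 1430.4, 1854 and 1519.7 CPM in mural cells and from 1.06, 1.72 and 0.368 to 11.4, 7.22 and 3.89 CPM in cumulus cells (-2.22 ± 0.56, adjusted p = 0.0124, with 6 alternatives ending the call). Among the phosphodiesterases, which break down cyclic nucleotides, calls lay on both sides and Pde3a, Pde5a, Pde8a and Pde10a were not called. Pde7b fell in cumulus cells from 42.5, 66.3 and 47.1 to 7.88, 7.1 and 7.5 CPM, while mural libraries stayed between 35.5 and 52.4 CPM at both times (-2.69 ± 0.24, adjusted p = 1.16e-06). Pde4d rose in both, from 3.25, 3.94 and 4.13 CPM in cumulus cells and 10.5, 12.5 and 8.91 CPM in mural cells at 0 h to overlapping levels at 4 h (1.58 ± 0.21, adjusted p = 7.93e-05).

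Of 14 genes that the ERK cascade induces and that restrain it in turn, 4 were called toward cumulus, each from a lower start in cumulus cells, and 1 toward mural. Of all genes, 6.78% were called toward cumulus and 7.26% toward mural. The other 9 of the list were not called, and its median difference was 0.89. The phosphatase gene Dusp6 rose from 1.69, 0.60 and 0.459 to 96.1, 131 and 73.3 CPM in cumulus and from 5.05, 5.76 and 4.19 to 95.9, 153 and 108 CPM in mural cells, ending at overlapping levels (2.24 ± 0.44, adjusted p = 0.00204). The ERK inhibitor gene Spred2 did the same, from 5.98, 6.92 and 5.56 CPM in cumulus and 19, 19.9 and 16.8 CPM in mural cells to 71.9, 74.6 and 55.6 and 73, 84.1 and 70.6 CPM (1.42 ± 0.17, adjusted p = 2.63e-05). Dusp4 (2.87 ± 0.60, adjusted p = 0.00359) and Spred3 (1.22 ± 0.24, adjusted p = 0.00215) were the others called. Errfi1, an inhibitor of the EGF receptor itself, went the other way: the cell types overlapped at 0 h, at 16.5, 23.4 and 21.3 and 17.6, 20.7 and 20.1 CPM, and stood at 133, 196 and 163 CPM in cumulus and 462, 657 and 502 CPM in mural cells at 4 h (-1.79 ± 0.29, adjusted p = 0.000424). With group weights 1 of the 14, Spred2, was called toward cumulus, and the median of the list was 0.26 without the third cumulus library of 4 h. That library had the highest sum of oocyte markers, 8680 CPM. Dusp14 (1.61), Spry1 (1.47) and Spry4 (0.57), 3 of the uncalled members, moved with that sum among cumulus libraries (correlation of at least 0.9). None of the called members did, and the part of oocyte RNA in the median was not tested. Of 22 immediate early transcription factors, 3 were called toward cumulus and 2 toward mural. The AP-1 member Fosl1 (1.90 ± 0.30, adjusted p = 0.000378) and the small Maf gene Maff (-1.58 ± 0.33, adjusted p = 0.00335) were the ones with the smallest adjusted p on each side. The 22 genes summed to 444, 543 and 2423 CPM in the cumulus libraries at 0 h, listed from low to high. The SE was 2.25 for Fosb, 1.36 for Egr1 and 1.16 for Fos, so a missing call there does not show equal changes.

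The genes that follow had some of the largest differences toward cumulus, chosen where the mean of some group reached 20 CPM. This choice favours genes with few counts in cumulus cells at 0 h, so a low start there is no separate result. Levels at 0 h are given here for Aldh1a3 and Flnc only. Aldh1a3, an enzyme of retinoic acid synthesis, rose from 0.246, 0.14 and 0.391 to 45.2, 34.2 and 20.2 CPM in cumulus and from 2.05, 2.09 and 2.53 to 5.52, 7.48 and 5.23 CPM in mural cells (5.56 ± 0.43, adjusted p = 2.72e-07). It turned from lower to higher in cumulus cells. The actin cross-linker gene Flnc began at 0.0546, 0.32 and 0.138 CPM in cumulus and 6.32, 7.02 and 11 CPM in mural cells. At 4 h it had reached 125, 96 and 68.7 and 88.1, 101 and 97.4 CPM, so that the levels overlapped at 4 h and not at 0 h (5.46 ± 0.44, adjusted p = 4.75e-07 for the difference in change). The endothelial lipase gene Lipg (4.55 ± 0.39, adjusted p = 8.73e-07) and Fgl2 (3.95 ± 0.50, adjusted p = 4.02e-05) likewise had no called difference between cell types at 4 h. By contrast, the cytokine gene Clcf1 (4.43 ± 0.45, adjusted p = 4.82e-06) and the transcription factor gene Creb3l1 (3.75 ± 0.32, adjusted p = 8.47e-07) ended higher in cumulus cells. So did the nicotinic receptor gene Chrna4, at 38.5, 58.5 and 23.3 CPM in cumulus and 4.13, 8.15 and 4.08 CPM in mural cells at 4 h (4.47 ± 0.58, adjusted p = 5.13e-05).

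Of the genes that moved in opposite directions, some rose in cumulus and fell in mural cells. The bone morphogenetic protein (BMP) antagonist gene Grem1 (chr2:113746164-113758646) rose from 209.7, 154 and 136 to 588, 574 and 382 CPM in cumulus cells and fell from 588, 543 and 476 to 156, 261 and 155 CPM in mural cells. The order of the cell types turned over without overlap at either time, and the difference was 3.12 ± 0.30 (adjusted p = 2.55e-06). The arrestin-domain gene Arrdc4 also turned over, from 23, 19 and 16.2 to 56.7, 48.2 and 45.1 CPM in cumulus and from 78, 73.2 and 55.6 to 24.2, 23.3 and 23 CPM in mural cells (2.92 ± 0.20, adjusted p = 7.15e-08). The planar polarity gene Prickle2 (2.53 ± 0.23, adjusted p = 1.23e-06), Gas7 (2.38 ± 0.23, adjusted p = 2.90e-06) and the complement protease gene Masp1 (1.97 ± 0.19, adjusted p = 2.96e-06) rose in cumulus and fell in mural cells by smaller amounts. Other genes of BMP and activin signalling were mixed. Of 24, 6 were called toward cumulus, among them Fst (1.0 ± 0.30), Id4 (3.39 ± 0.62) and Id1 (1.41 ± 0.25), and Id2 (-1.73 ± 0.32) and Smad7 (-1.41 ± 0.28) were called toward mural. Among all genes, 6.78% were called toward cumulus and 7.26% toward mural. Of 22 alternatives, 8 ended the call of Fst (adjusted p up to 0.107).

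In the reverse direction, the synaptic release gene Rims4 had the smallest adjusted p of the named genes. It fell from 56.8, 48.6 and 43.6 to 18.8, 17.2 and 11 CPM in cumulus cells and rose from 37.7, 32.8 and 36.8 to 309, 358 and 290.4 CPM in mural cells (-4.82 ± 0.22, adjusted p = 5.23e-10). The fatty acid transporter family gene Slc27a3 fell from 34.6, 25.4 and 24.7 to 16.1, 13.4 and 11.5 CPM in cumulus cells and rose from 48.3, 47.7 and 42.9 to 314, 460.4 and 352 CPM in mural cells (-4.07 ± 0.24, adjusted p = 1.21e-08). The organic anion pump gene Abcc2 gave the largest named difference of this kind, -5.42 ± 0.38 (adjusted p = 9.73e-08), at 15.1, 8.64 and 14.4 CPM in cumulus and 10.2, 8.71 and 9.39 CPM in mural cells at 0 h. By 4 h it was down to 2.72, 3.49 and 1.36 CPM in cumulus and up to 87.5, 67.5 and 85 CPM in mural cells.

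A pair of inhibitors of NF-kappa-B signalling moved in this way too. Nfkbia, whose promoter window is printed above, fell from 70.3, 63.8 and 61.6 to 37.7, 36.7 and 32 CPM in cumulus cells and rose from 39.8, 41 and 35.8 to 77.2, 62.6 and 74 CPM in mural cells (-1.75 ± 0.14, adjusted p = 4.40e-07). Tnfaip3 fell from 3.6, 5.0 and 6.18 to 2.38, 3.0 and 0.778 CPM in cumulus and rose from 2.3, 2.11 and 2.38 to 15.1, 32.5 and 17.9 CPM in mural cells (-4.53 ± 0.54, adjusted p = 2.63e-05). Over the 23 cytokine genes tested, 2 were called toward cumulus and 2 toward mural, near the shares of 6.78% and 7.26% of all genes. The histamine-forming enzyme gene Hdc (-3.81 ± 0.31, adjusted p = 4.75e-07) also fell in cumulus and rose in mural cells. The same held for Alas2 (-3.76 ± 0.59, adjusted p = 0.000372), a haem synthesis enzyme of red blood cell precursors, which was on the erythroid marker list. The 6 erythroid markers summed to 87.8 to 146 CPM in mural libraries at 0 h and 450 to 700.0 CPM at 4 h, against 8.71 to 17.8 and 5.98 to 9.96 CPM in cumulus libraries, and 3 of them were called toward mural. Their part in the difference of Alas2 was not tested.

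Of 24 genes of cholesterol synthesis and uptake, 11 were called toward mural and none toward cumulus, against 7.26% and 6.78% of all genes, and the median difference was -0.64. In mural cells 11 of the 24 rose and 3 fell, and in cumulus cells 2 rose and 11 fell. Insig1, a sterol sensor that restrains the pathway, was 201, 175 and 162 CPM in cumulus cells at 0 h and 151, 157 and 184 CPM at 4 h. In mural cells it rose from 115, 104 and 90.1 to 227, 256 and 213 CPM, and the difference was -1.30 ± 0.16 (adjusted p = 3.69e-05). The sterol desaturase gene Sc5d behaved alike, rising in mural cells alone (-1.12 ± 0.13, adjusted p = 2.24e-05). The early enzyme gene Hmgcs1 had a smaller difference (-0.62 ± 0.17, adjusted p = 0.0239). Mvd had the largest difference of the list and fell in both, from 108, 74.7 and 77.4 to 22.7, 16.9 and 18.8 CPM in cumulus and from 34.8, 28.3 and 22.8 to 25, 14.1 and 20.9 CPM in mural cells (-1.64 ± 0.28, adjusted p = 0.000673). Lss fell in cumulus cells (-1.31 ± 0.21, adjusted p = 0.000462), while its change in mural cells was not called, and Cyp51, Msmo1, Sqle, Dhcr7 and Hsd17b7 were also called. Over the alternatives, 7 to 17 genes of the list were called toward mural and none toward cumulus, the most without the second cumulus library of 4 h. Of the 16 members with a promoter in the table, Hmgcs1 alone held the TCACNCCAC letters in the 250 bases searched.

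All 13 mitochondrially encoded transcripts were called toward mural, with differences from -1.36 to -1.06 and a median of -1.26. They fell in cumulus cells, 13 of 13, with a median change of -0.77, and in mural cells 4 of 13 rose, with a median change of 0.48. For mt-Co1, a subunit of cytochrome oxidase, means went from 25921 to 15430.2 CPM in cumulus and from 14164 to 20254 CPM in mural cells (-1.26 ± 0.30, adjusted p = 0.00836). These transcripts come from 1 genome and are not independent of each other, and their share of a library is also a common sign of RNA or cell quality. Mitochondrial genes took 12.8, 8.49 and 8.50% of counts in the cumulus libraries at 0 h and 6.20, 4.35 and 5.76% at 4 h. In mural libraries they took 4.88, 5.02 and 6.08% at 0 h and 5.24, 5.33 and 7.57% at 4 h. The first cumulus library of 0 h was the highest of the 12, and without it the median difference was -0.95. The part of RNA or cell quality in this result was not tested.

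**Figure D3:**
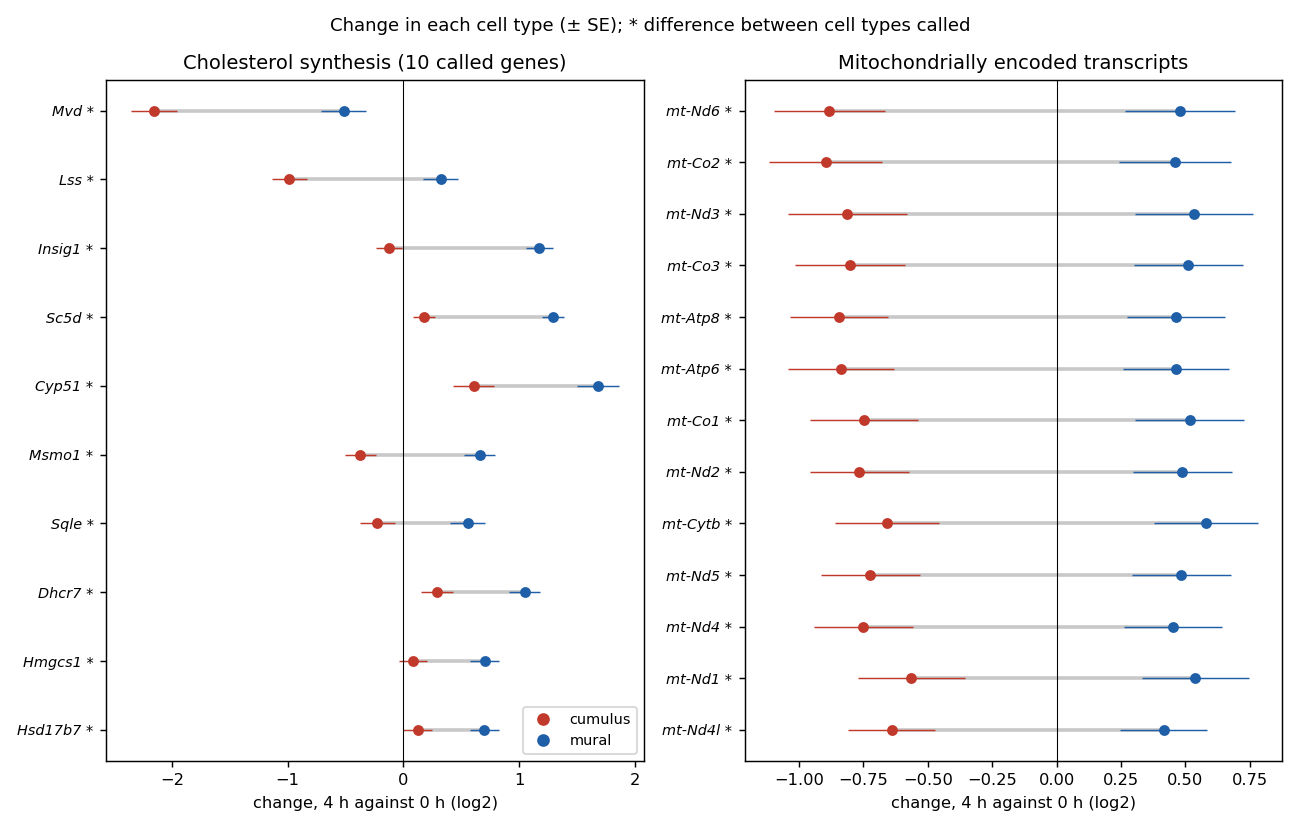
Each of 10 called genes of the cholesterol list that the text names (left) and each mitochondrially encoded transcript (right) is shown by its log2 change from 0 to 4 h in cumulus (red) and mural (blue) cells, with bars of 1 SE, and an asterisk marks a called difference. The mural change lies to the right of the cumulus change for all 10 cholesterol genes and for all 13 mitochondrial transcripts, while the rest of the cholesterol list is not drawn.

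Oxygen-related and metabolic genes had calls on both sides, while 6.78% of all genes were called toward cumulus and 7.26% toward mural. The hypoxia-inducible factors went apart: Hif1a rose further in cumulus cells, from 336, 259.6 and 273 to 1284, 1810.5 and 1010.2 CPM, than in mural cells, from 441, 393 and 342 to 541, 804 and 540.1 CPM (1.56 ± 0.27, adjusted p = 0.000831). Epas1 fell in cumulus cells alone, from 419, 326 and 324 to 63.7, 95.9 and 38.2 CPM, while mural libraries held 198, 164 and 174 CPM at 0 h and 191, 175 and 173 CPM at 4 h (-2.44 ± 0.32, adjusted p = 5.28e-05). Of 17 hypoxia and angiogenic genes, 5 were called toward mural, including Vegfa (-0.88 ± 0.23) and Apln (-2.85 ± 0.48), and 2 toward cumulus. The call of Apln was lost with group weights and that of Vegfa in the fit to the 12 libraries alone (adjusted p = 0.188 and 0.0607). Among 21 glycolysis genes 1 was called toward mural, the phosphofructokinase gene Pfkp (-2.19 ± 0.24, adjusted p = 9.49e-06), and 2 toward cumulus. Amino acid transporters gave 5 calls toward mural and 3 toward cumulus of 20. The cystine carrier gene Slc7a11 rose further in mural cells (-2.79 ± 0.45, adjusted p = 0.000429), and Slc38a3, a transporter known as a cumulus gene that depends on the oocyte, fell in cumulus cells (-2.30 ± 0.41, adjusted p = 0.000928).

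The Notch target Hey1 rose further in mural cells, from 2.58, 2.27 and 1.73 to 33.1, 68.7 and 32.7 CPM, than in cumulus cells, from 9.42, 5.28 and 7.33 to 14.1, 15.8 and 14 CPM (-3.35 ± 0.40, adjusted p = 2.18e-05). The receptor gene Notch1 differed the other way (2.0 ± 0.32, adjusted p = 0.000433). Of 14 Notch genes, 2 were called toward cumulus and 1 toward mural, against 6.78% and 7.26% of all genes. Besides Notch1, the call toward cumulus was Nrarp, which moved with the summed oocyte markers among cumulus libraries (correlation of at least 0.9). Its means in cumulus cells were 0.044 CPM at 0 h and 0.708 CPM at 4 h, and 14 of 21 alternatives ended its call. The unfolded protein response had 4 of 13 genes called toward cumulus and none toward mural, among them Xbp1 (0.77 ± 0.24, adjusted p = 0.0433). None of these was called in the fit to the 12 libraries alone, and 10 of 22 alternatives ended the call of Xbp1. Leaving out 1 library moved the 4 calls to between 0 (without the third mural library of 4 h) and 8 (without the third cumulus library of 4 h). Of 17 clock genes, 2 were called toward cumulus and 3 toward mural, including Per1 (-0.69 ± 0.13, adjusted p = 0.0018). Among these calls, Per3 (toward cumulus) and Nfil3 (toward mural) also moved with the summed oocyte markers, and 15 of 21 alternatives ended the call of Per3. The part of oocyte RNA in the Notch and clock calls was not tested. Cell division genes had few calls. Of 20 mitosis genes, edgeR's quasi-likelihood test and DESeq2 called 0, and 3 had an unadjusted p under 0.05 in edgeR. Of 18 DNA replication genes 1 was called, Mcm7 (-0.68 ± 0.15, adjusted p = 0.00437). Of 15 D cyclins and cell cycle brakes, 3 were called toward mural, and of 8 gap and tight junction genes, 2 toward cumulus.

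**Figure D4:**
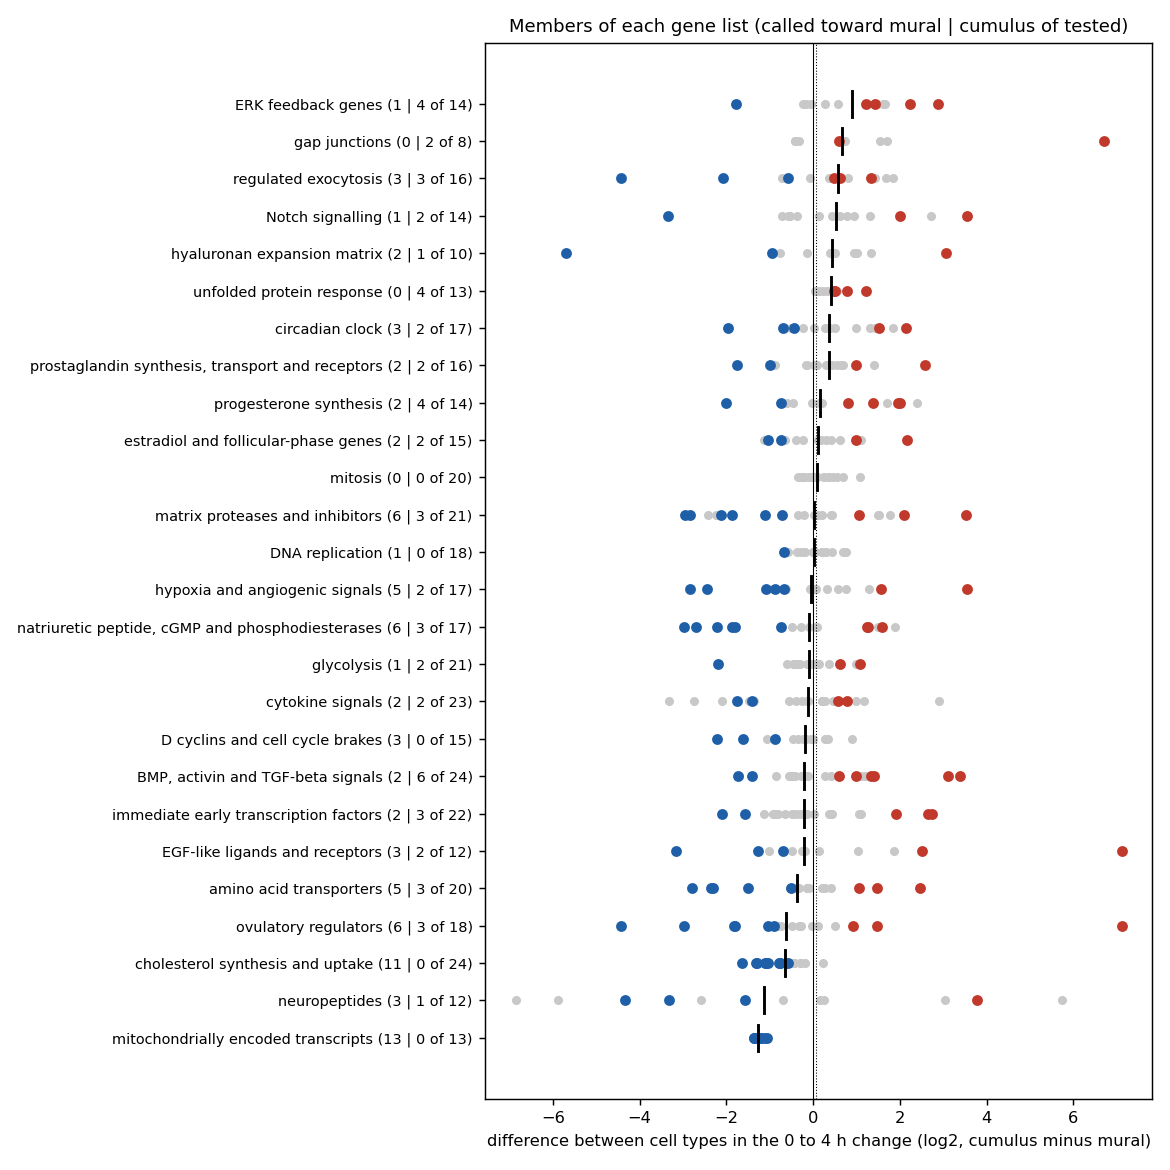
Each row is a gene list and each point a member, placed by the log2 difference between the cell types' changes, in red or blue where called toward cumulus or mural and grey where not, with a black bar at the median. Zero is the solid line and the median of all genes, 0.07, the dotted one. Mitochondrial transcripts and cholesterol genes are called on the mural side only, at medians of -1.26 and -0.64, and most other lists hold calls on both sides.

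Markers of other cells were followed in the same way. The 15 oocyte markers had a median difference of 1.97, and 1 of them, Tle6 (2.21 ± 0.67, adjusted p = 0.0361), was called. A total of 2381 genes (11.9%) moved with the summed oocyte markers among the cumulus libraries (correlation of at least 0.9), and 179 of the 2800 called genes were among them. With that sum as a covariate 3027 genes were called, 2135 of them shared with the 2800 in the same direction. Without the 2 cumulus libraries that stand furthest from their groups, the first of 0 h and the third of 4 h, 3616 were called, 2309 of them shared. Of 8 theca markers, Star alone was called. Cyp17a1, the defining theca gene, went from a mean of 114 ± 19 to 27.2 ± 4.0 CPM in mural libraries and was at 0.58 ± 0.271 CPM in cumulus libraries at 0 h and listed at 0 at 4 h. Neutrophil markers summed to at most 5.67 CPM in any of the 12 libraries and macrophage markers to at most 33.7 CPM. Fibroblast and smooth muscle markers were 305 to 615 CPM in mural and 14.3 to 84.7 CPM in cumulus libraries, with 2 of 8 called toward mural. The part of these other cells in the differences was not tested, and in bulk samples fewer cells of a type and less RNA per cell cannot be told apart.

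The libraries of 12 h, which the difference at 4 h does not use, show where these genes stood later. In the counts that follow, higher and lower mean past an adjusted p of 0.05 in the edgeR test between the cell types at 12 h. Of the 1352 genes called toward cumulus, 484 (35.8%) were higher in cumulus than in mural cells at 12 h and 235 (17.4%) were lower, while among all genes tested, of which 38.5% differed, 18% were higher and 20.5% lower. Of the 1448 called toward mural, 284 (19.6%) were higher in cumulus cells and 573 (39.6%) lower. Grem1 stood at 371, 385 and 335 CPM in cumulus and 18.7, 15 and 16.4 CPM in mural cells, in the same order as at 4 h. Aldh1a3 was also higher in cumulus cells, at 149.9, 103 and 117 CPM in cumulus and 2.25, 2.43 and 2.47 CPM in mural cells. Rims4 kept its order, at 29.9, 27.1 and 30 CPM in cumulus and 242, 261 and 266 CPM in mural cells. Other genes closed up again or turned: Snap25 was 37.2, 30.1 and 29.3 CPM in cumulus and 78, 83.8 and 79.2 CPM in mural cells, and Gas7, higher in cumulus cells at 4 h, was 17.8, 22.9 and 17.7 CPM there and 77.3, 96.1 and 81.4 CPM in mural cells. Tac1 had dropped below 0.5 CPM in all 6 libraries of 12 h.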

How the data were processed

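The labels and the series' design text describe polyadenylated RNA of mouse mural granulosa and cumulus cells, made into libraries with a stranded kit. The authors deposited 1 table of raw counts of uniquely mapped reads per gene, made in CLC Genomics Workbench with default parameters, per the series' design text, on GRCm38, per the submitters' processing notes. Its annotation, and whether counting used strand, is not given in the sources used here, so reads of overlapping and antisense genes may not be separated. All 18 columns were used.

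From these counts, edgeR 4.0.16 (R 4.3.3) kept 19941 of 41325 entries (expression filter, minimum count 10, 99.96% of counts), scaled them by TMM (0.849 to 1.177 in the 12 libraries) and fitted a robust quasi-likelihood model with 6 group means to 18 libraries. The difference of changes was tested with Benjamini-Hochberg adjustment at 0.05, and a gene past it is called. Alternatives used limma 3.58.1, DESeq2 1.42.0, other scalings, filters and libraries. A count of 0 allows up to 3 counts, and such limits cover counting error only.

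Named genes are 28 key genes of ovulation, the 8 largest differences on each side and the 6 largest in each opposite direction (a group mean of at least 20 CPM, changes that do not overlap, not oocyte-linked, no clone or predicted names), and up to 4 called members per list and side. Lists hold 499 genes, of which 497 are in the table; members named only to show a list's counts are extra. Comparison, lists and rule were chosen with earlier results of these data known. Coordinates are from GENCODE M21 and promoters from RefSeq (GRCm38.p6). Some list members are not reported here.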

Additional observations from a re-analysis of the deposited data

Results flagged for a closer look

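The change from 0 to 4 h differed between the cell types in 2800 genes, by a test of the difference itself. The cell types changed in opposite directions in 100 genes that rose in cumulus and fell in mural cells and in 122 that did the reverse. Of the named genes with opposite changes, those that rose in cumulus cells had log2 differences of 3.12 (Grem1), 2.92 (Arrdc4), 2.53 (Prickle2), 2.38 (Gas7), 1.99 (Hsd3b1) and 1.97 (Masp1). Those that rose in mural cells had differences of -5.42 (Abcc2), -4.82 (Rims4), -4.53 (Tnfaip3), -4.07 (Slc27a3), -3.81 (Hdc) and -3.76 (Alas2). Each of these 12 genes was called under all 22 alternatives, of which 21 are fits. The remaining alternative keeps the main fit's values for genes not linked to oocyte RNA. These genes were chosen as called and not so linked, so they could not fail it. Groups of 3 libraries are too small for a check of single outlying samples.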

How the results depend on the processing

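No difference named in the text with a call changed sign under an alternative. The count of 2800 (1352 toward cumulus, 1448 toward mural) became 1564 (704 and 860) in the 12 libraries alone and 1618 (761 and 857) with group weights, which weigh cumulus cells at 4 h by 0.291 and mural cells at 4 h by 1.22. Changes within cumulus cells numbered 6193 with group weights and 9532 in the main fit. Scaling by totals gave 2320 toward cumulus and leaving out the first cumulus library of 0 h with the third of 4 h gave 2037, and the oocyte sum as a covariate left 5831 of 10876 differences between cell types at 4 h. Without 1 library the count ran from 2037 (without the third mural library of 4 h) to 4270 (without the second cumulus library of 4 h), with 978 to 2280 toward cumulus and 994 to 1990 toward mural. DESeq2 called 3742, RLE scaling 2944 and no filter 2272. Of the 2800, 2621 were not linked to oocyte RNA, which is a part of the main result and not a new fit. Whether replicate numbers pair the libraries was not settled. Correlations of same-numbered deviations ran from -0.29 to 0.40 and most were positive, while those of differently numbered ones ran from -0.49 to 0.43. With a replicate block 2934 genes were called. With 3 libraries a group, small differences and those of genes with few counts at 0 h stay uncertain.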
